A study of Mus musculus with 4 samples.

Results

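Transcripts of the suppressors of cytokine signalling (SOCS) and of the Pim kinases are described here in T helper 17 (Th17) cells, CD4 T cells defined by IL-17 cytokines. The members were taken by symbol: the 8 SOCS genes Socs1 to Socs7 and Cish, and the 2 kinase genes Pim1 and Pim2. All 10 were found, each in a single row, among 23356 gene rows. RNA was sequenced from 2 libraries of Th17 cells given recombinant murine serum amyloid A1 (SAA1) at 2 ng/ml, as labelled, and from 2 libraries of Th17 cells labelled as untreated and titled veh, here called vehicle. Both groups came from wild-type C57BL/6 mice aged 6 to 8 weeks and were cultured in vitro for 48 h. The labels give neither the number of mice, nor any pooling, nor the cytokines in the culture, so the libraries may be technical repeats of one culture.

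SOCS proteins are feedback brakes. Cytokines bind receptors that carry Janus kinases (JAKs), the JAKs activate STAT transcription factors, and STATs switch on several SOCS genes, whose proteins bind the receptor or the kinase through an SH2 domain and recruit a ubiquitin ligase through the SOCS box. Pim kinases are serine/threonine kinases that promote survival and growth. They are active once made, so their transcript level, which STATs also raise, is a main point of control. In T helper cells SOCS3 is known to restrain STAT3, the STAT that drives IL-17 expression.

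The level of each gene is given in FPKM, mapped fragments scaled by library size and by transcript length in kilobases, a scale per length on which genes can be compared. The authors deposited a single FPKM value per group, made by Cuffdiff from both libraries, so no value per library, no spread of a level and no depth is known. A log2 ratio is that of the SAA1 over the vehicle FPKM. Its standard error (SE) is implied by the deposited test statistic, which was taken as the log ratio over its SE. A 95% interval is 1.96 SE to each side, as for a normal distribution. The deposited p-values do not follow a normal distribution of that statistic, so an interval and the p beside it can disagree. A gene was called where its deposited adjusted p, the authors' own, was under 0.05.

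STATs recognise a short palindromic motif, and the start-site regions of 3 members are shown for where that motif stands in them. Each is the RefSeq sequence on GRCm38.p6, from 250 bases before to 50 bases after the annotated start site, on the gene's own strand. Capitals mark the STAT motif TTCNNNGAA, which reads alike on both strands. Of the 6 members whose region was available, Cish and Socs3 hold it, and Pim1 is a member that was called and holds none. Cish lies at chr9:107296409-107296708 on the plus strand, Socs3 at chr11:117969317-117969616 on the minus strand and Pim1, at the more upstream of its annotated starts, at chr17:29490535-29490834 on the plus strand.
Cish: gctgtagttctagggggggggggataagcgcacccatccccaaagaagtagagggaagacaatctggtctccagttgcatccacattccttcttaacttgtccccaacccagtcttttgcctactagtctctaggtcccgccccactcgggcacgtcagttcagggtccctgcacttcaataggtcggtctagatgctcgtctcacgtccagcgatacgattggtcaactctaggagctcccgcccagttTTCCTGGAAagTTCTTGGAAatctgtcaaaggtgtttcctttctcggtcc
Socs3: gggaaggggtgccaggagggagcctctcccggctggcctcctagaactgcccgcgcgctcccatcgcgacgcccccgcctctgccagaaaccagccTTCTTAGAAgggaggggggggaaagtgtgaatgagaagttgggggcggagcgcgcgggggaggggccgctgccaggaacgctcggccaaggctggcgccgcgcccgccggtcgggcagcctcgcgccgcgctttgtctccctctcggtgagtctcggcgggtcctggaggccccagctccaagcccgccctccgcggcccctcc
Pim1: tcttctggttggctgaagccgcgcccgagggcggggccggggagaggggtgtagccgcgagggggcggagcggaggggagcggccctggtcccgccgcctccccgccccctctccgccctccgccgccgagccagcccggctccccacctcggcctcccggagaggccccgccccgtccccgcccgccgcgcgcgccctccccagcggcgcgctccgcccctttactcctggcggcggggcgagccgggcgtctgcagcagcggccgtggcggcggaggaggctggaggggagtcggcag

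In Cish the motifs begin at bases 1 and 12 counted from the start site, as ttcctggaa and ttcttggaa in the order shown. That start site is 107296659, and both motifs lie upstream of 107296689, where the measured row of Cish begins. The GENCODE annotation of Cish begins further upstream, at 107296026. In Socs3 the single motif begins at base -154, upstream of the start site. Of the 10 members, 6 matched an entry of the promoter table (Socs1, Socs3, Socs4, Cish, Pim1 and Pim2), and Socs2, Socs5, Socs6 and Socs7 did not. The motif stood in 2 of the 6, against 8.30% of all 32851 promoters of the same length. Copies numbering 2 or more, as in Cish, stood in 0.457% of these promoters. Members are counted by gene and the background by promoter, of which Pim1 has 2, so the shares are not in like units. The Pim1 region shown is 81.3% G and C, the Socs3 region 73.3% and the Cish region 53.3%, beside a median of 52.7% over all promoters. The region at the other annotated start of Pim1, not shown, is 49% G and C and holds no motif either. These matches are descriptions of letters and were not tested for binding.

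All 10 members had at least 1 FPKM in both groups and all were tested by the authors. Pim1 was the most abundant in both groups, at 105 FPKM with SAA1 and 77.9 FPKM with vehicle. Socs1, which binds and inhibits JAKs, followed at 63.9 FPKM with SAA1 and 64.5 FPKM with vehicle, and Cish, a brake on IL-2 receptor and STAT5 signalling, at 49.0 FPKM with SAA1 and 47.3 FPKM with vehicle. Socs5 and Socs2 were the least abundant, under 6 FPKM in both groups. Between these ends, Pim2, Socs4, Socs3 and Socs7 lay between 12.9 and 25.8 FPKM, and Socs6 at 7.90 FPKM with SAA1 and 9.35 FPKM with vehicle. The order differed between the groups in 2 places. Pim2 stood above Socs4 with SAA1 and just below it with vehicle, and Socs2 stood above Socs5 with SAA1 and was last with vehicle. With no spread of a level, neighbours in this order could not be tested against each other.

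**Figure D1:**
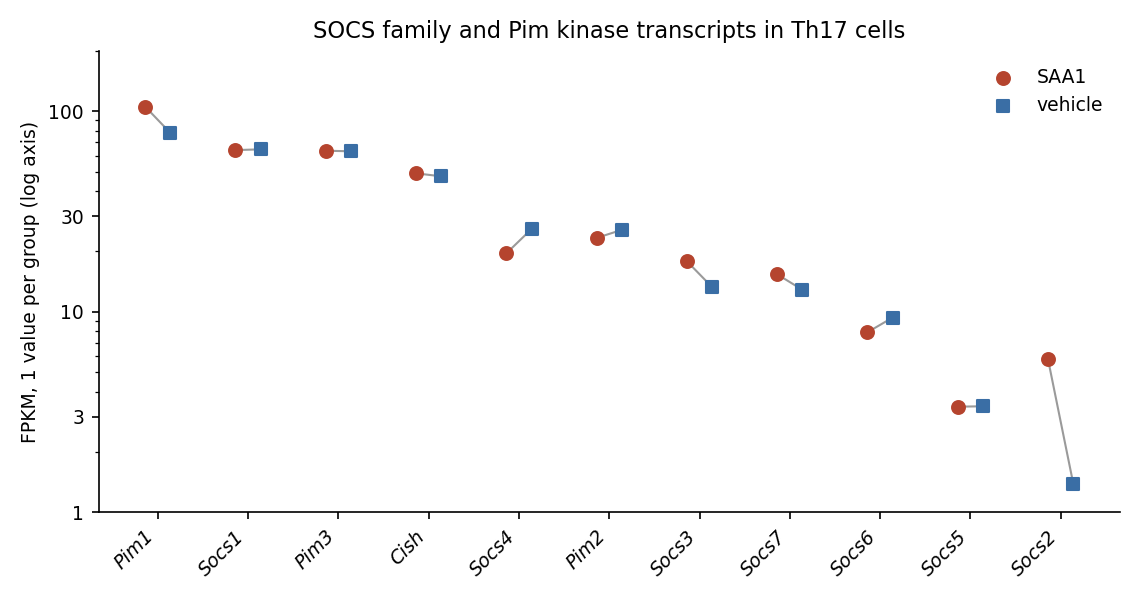
Level of each SOCS and Pim transcript, with Pim3 added, in FPKM on a log axis, ordered by the vehicle value; circles are the SAA1 group and squares the vehicle group, each 1 value made by the authors from 2 libraries. Socs2 shows the steepest step, at 5.78 FPKM with SAA1 and 1.38 FPKM with vehicle, and 4 members (Socs1, Socs5, Cish and Pim2) differ by less than 10%.

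Of the 10 members, 2 were called higher with SAA1, Socs2 and Pim1, and 0 were called lower, by the authors' deposited table. Over all 11481 tested genes, that table calls 3.97% higher, 2.55% lower and 6.52% in either direction. At an unadjusted p under 0.05 the deposited table holds 4 members and 15.8% of all tested genes. They were Socs2, Pim1 and Socs3 higher, where the background is 8.22%, and Socs4 lower, where it is 7.62%. The SAA1 value was above the vehicle value in 5 members and below it in the other 5. Their median log2 ratio was 0.02, on log2 of FPKM plus 0.1, against -0.02 over the 10689 tested genes that reached 1 FPKM in at least one group. In a culture, a change in the share of cells that make a transcript and a change per cell cannot be told apart.

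Socs2 was the member that differed most. SOCS2 is best known as a feedback brake on growth hormone receptor signalling through STAT5, and in mouse T cells it limits Th2 differentiation. Its level was 5.78 FPKM in SAA1 cultures and 1.38 FPKM in vehicle cultures, a 4.17-fold difference. The log2 ratio was 2.06 ± 0.33 (implied SE, 2 libraries per group), with a 95% interval of 1.41 to 2.71, or 2.66- to 6.55-fold. Its Cuffdiff p was 5e-05 in the authors' deposited table, the smallest there and shared by 300 genes, with 0.0019 as adjusted p. By fold Socs2 stood at place 30 among the 456 genes called higher. Its row spans chromosome 10 from 95411490 to 95416857 on mm10, on the minus strand, introns included. GENCODE annotates Socs2 over a longer stretch, from 95385362 to 95417180, and no other annotated gene overlaps it. Its rise was large as a ratio and small as a level: Socs2 made up 3.16% of the summed FPKM of the 8 SOCS genes with SAA1 and 0.778% with vehicle.

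Pim1 rose by less from a much higher level. It encodes the founding Pim kinase, a STAT3 and STAT5 target. It stood at 105 FPKM in SAA1 cultures and 77.9 FPKM in vehicle cultures, 1.35-fold higher, with a log2 ratio of 0.44 ± 0.20 (implied SE, 2 libraries per group) and a 95% interval of 0.04 to 0.83. Cuffdiff's adjusted p of 0.044, from the authors' deposited table, was close to the threshold. By fold it stood at place 450 of the 456 genes called higher. With a p from a normal distribution of the deposited statistic in place of the deposited p, the adjusted p of Pim1 was 0.46 and the call was lost, while that of Socs2 was 1.8e-07. Pim1 spans chromosome 17 from 29491045 to 29495459 on mm10. GENCODE annotates an antisense gene, Gm26885, over 14.5% of its exonic bases, and no source used here states whether the counting used strand, so reads of the pair cannot be told apart there.

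Pim1 was the only Pim gene called. Pim2, a kinase with overlapping substrates that lies on the X chromosome, was at 23.3 FPKM with SAA1 and 25.6 FPKM with vehicle (log2 ratio -0.13 ± 0.21, adjusted p 0.80 in the authors' deposited table). Pim3, the remaining kinase of the family and not one of the members, was at 63.5 FPKM with SAA1 and 63.1 FPKM with vehicle (log2 ratio 0.01 ± 0.20, adjusted p 0.99 in the authors' deposited table). Its 95% interval of -0.39 to 0.40 holds the log2 ratio of -0.13 of Pim2 and ends just under the 0.44 of Pim1, and the intervals of the 3 kinases overlap. The difference between the kinases' ratios was not tested. Pim1 made up 54.8% of the summed FPKM of the 3 Pim kinases with SAA1 and 46.8% with vehicle.

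Socs3 and Socs4 came next and went opposite ways without passing the test. Socs3, the brake on gp130 receptors and STAT3, was at 17.9 FPKM with SAA1 and 13.3 FPKM with vehicle, a ratio of 1.35, the same size as that of Pim1. Its log2 ratio was 0.43 ± 0.22 (95% interval 0.01 to 0.85), with a Cuffdiff adjusted p of 0.069 (authors' deposited table). Socs4, a brake on the epidermal growth factor receptor, was at 19.5 FPKM with SAA1 and 25.8 FPKM with vehicle, a ratio of 0.755. Its log2 ratio was -0.41 ± 0.21 (95% interval -0.83 to 0.02), with a Cuffdiff adjusted p of 0.089 (authors' deposited table). For Socs4 the unadjusted Cuffdiff p was 0.0075, although the interval holds 0. With a normal distribution of its statistic, the unadjusted p was 0.059. By the Cuffdiff adjusted p, Socs3 and Socs4 both lie outside the threshold of 0.05 and inside one of 0.1. Socs3 spans chromosome 11 from 117966087 to 117969366 on mm10, and its annotated start is the one whose region is shown above.

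The 2 most abundant SOCS transcripts, Socs1 and Cish, were not called and had ratios near 1. Socs1 had a log2 ratio of -0.01 ± 0.21 and a 95% interval of -0.42 to 0.40, and Cish one of 0.05 ± 0.20 with an interval of -0.35 to 0.45. Cuffdiff's adjusted p, from the authors' deposited table, was 0.99 for Socs1 and 0.96 for Cish. These intervals leave room for differences of up to about 1.32-fold for Socs1 and 1.37-fold for Cish in the higher direction. Together Socs1 and Cish made up 61.8% of the summed SOCS FPKM with SAA1 and 62.9% with vehicle. Cish, whose region holds the paired STAT motif, spans chromosome 9 from 107296689 to 107301961 on mm10, and a pair of genes on the opposite strand, Gm17041 and Gm17040, cover 7.46% and 4.07% of its annotated exonic bases.

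The remaining SOCS genes act mainly on growth factor and insulin signalling and showed no call. Socs7, which binds adaptor proteins of insulin and growth factor signalling, was at 15.4 FPKM with SAA1 and 12.9 FPKM with vehicle (log2 ratio 0.26 ± 0.20, adjusted p 0.37 in the authors' deposited table). Socs6, a brake on the Kit receptor, had a log2 ratio of -0.24 ± 0.23 (adjusted p 0.52 in the authors' deposited table). Socs5, reported to act on IL-4 and epidermal growth factor receptors, was at 3.36 FPKM with SAA1 and 3.38 FPKM with vehicle (log2 ratio -0.01 ± 0.25, adjusted p 0.99 in the authors' deposited table). The sum over the 8 SOCS genes was 183 FPKM with SAA1 and 178 FPKM with vehicle, a ratio of 1.03. Without an error on this sum, the ratio is a description.

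**Figure D2:**
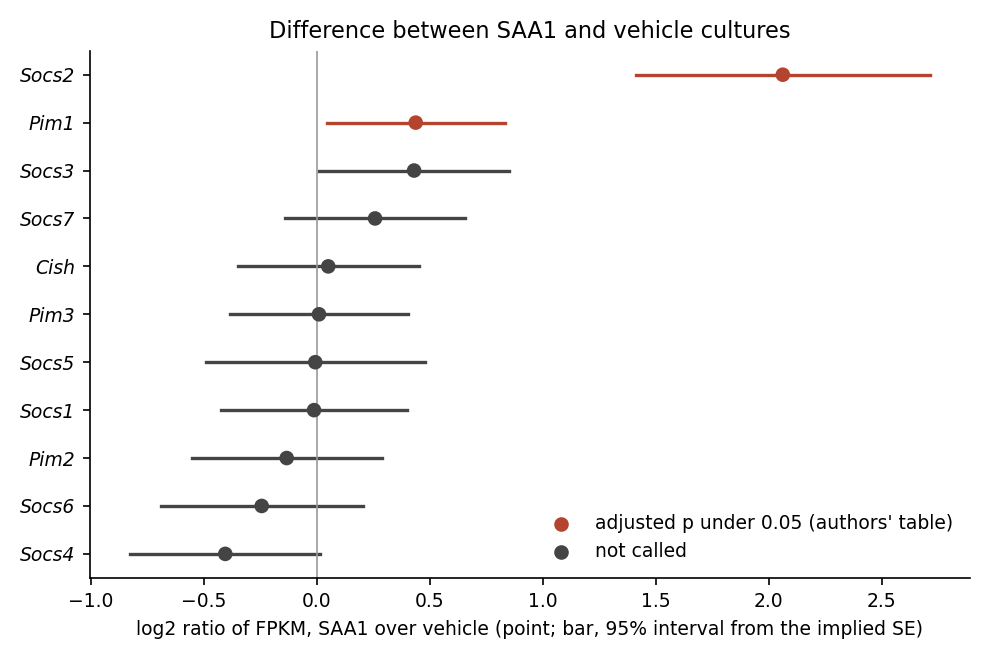
The log2 ratio of SAA1 over vehicle FPKM for each SOCS and Pim gene, ordered from the highest at the top; bars are 95% intervals from the SE implied by the deposited statistic, and red marks genes called in the authors' deposited table. The interval of Socs2, 1.41 to 2.71, lies apart from those of all other genes drawn, whose points lie between -0.41 and 0.44.

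**Figure D3:**
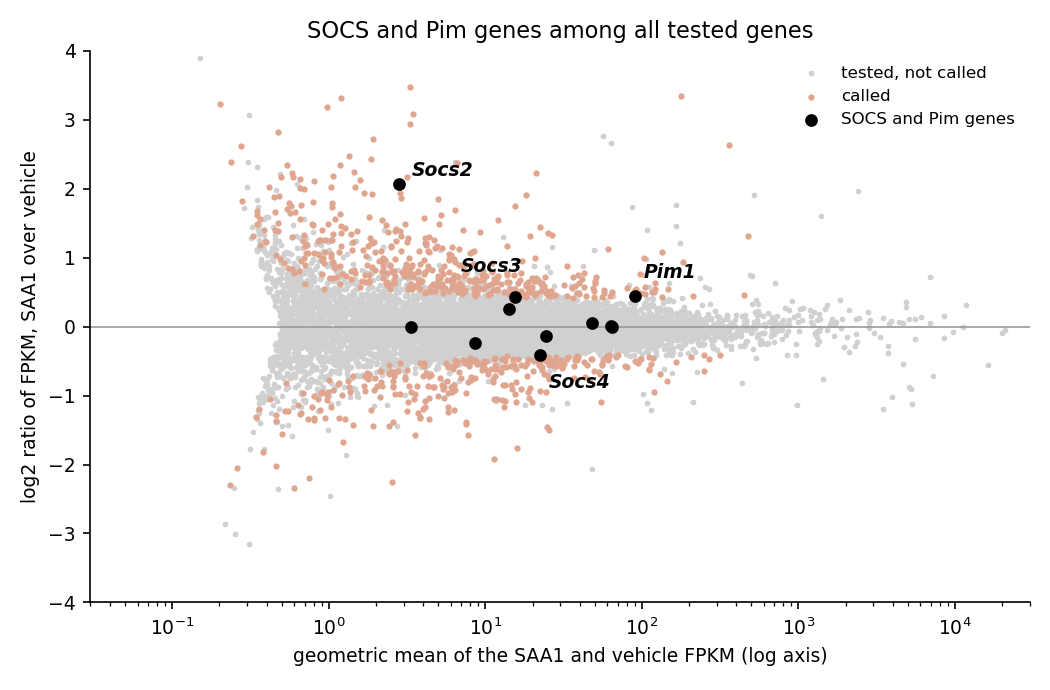
Each tested gene by its level (geometric mean of both groups in FPKM, log axis) and its log2 ratio, with called genes in orange and the SOCS and Pim genes, Pim3 included, in black; 11 genes lie beyond the vertical axis and 78 with no finite ratio are not drawn. Socs2, at 2.06, stands in the upper part of the cloud, Pim1 at its edge at 0.44, and Socs3 and Socs4 are labelled at 0.43 and -0.41.

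Above the SOCS genes in the pathway stand JAK and STAT genes, receptor chains and cytokines. The difference in calls between these lists was not tested. Over all tested genes 6.52% were called and 15.8% had an unadjusted p under 0.05. Of 11 JAK and STAT genes, 0 were called by Cuffdiff in the authors' deposited table, and 0 had an unadjusted p under 0.05, a count too small to set apart from that background. Stat3, the STAT that SOCS3 restrains, was at 133 FPKM with SAA1 and 112 FPKM with vehicle (log2 ratio 0.25 ± 0.20), and Jak2, the most abundant kinase of the list, at 165 FPKM with SAA1 and 189 FPKM with vehicle. Of 19 tested receptor chains, the authors' deposited table called 2 higher and 0 lower, and 6 had an unadjusted p under 0.05. The 2 calls among 19 are likewise too few to set apart from the 6.52%. The called genes were Il7r, the IL-7 receptor, with a log2 ratio of 0.79 ± 0.30, and Il23r, the IL-23 receptor, with 0.52 ± 0.23. Of 11 tested cytokines that act through JAKs, the authors' deposited table called Il21 and Il23a higher, with log2 ratios of 1.08 and 0.76. It called Il3 and Il22 lower, with log2 ratios of -0.55 and -2.19, and 6 of the 11 had an unadjusted p under 0.05. Il22 was low in both groups, at 0.348 FPKM with SAA1 and 1.59 FPKM with vehicle (SE 0.71). The median log2 ratio of each of these 3 lists lay between -0.07 and 0.02.

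Beside the SOCS genes stand other brakes and the ligase they work through. Of 13 other brakes on cytokine receptors, 1 was called in the authors' deposited table, Usp18, an inhibitor of type I interferon signalling, which fell to 1.25 FPKM with SAA1, against 2.27 FPKM with vehicle. The phosphatases Ptprc (CD45) and Ptpn6 (SHP-1) were the most abundant of that list and were not called, with log2 ratios of -0.29 and -0.09. Of 8 subunits of the SOCS ubiquitin ligases, 0 were called by Cuffdiff in the authors' deposited table and 0 had an unadjusted p under 0.05. Tceb1, the elongin C subunit that binds the SOCS box, was at 105 FPKM with SAA1 and 121 FPKM with vehicle. Tceb2, its partner elongin B, was at 101 FPKM with SAA1 and 106 FPKM with vehicle. The locus of Tceb2 overlaps another row, and its log2 ratio of -0.08 ± 0.65 had a wide error. Of 14 tested genes for other SOCS box proteins, the authors' deposited table called only Asb2, which fell to 2.43 FPKM with SAA1, against 5.04 FPKM with vehicle. Wsb1 and Spsb3, the most abundant of these, had log2 ratios of 0.06 and 0.31. With 6.52% of all tested genes called, the counts of these 3 lists are near the background.

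Below the kinases, reported Pim substrates and partners held calls in both directions. Of 20 tested, the authors' deposited table called 1 higher and 3 lower. Cdkn1b, the cell cycle inhibitor p27, rose to 45.4 FPKM with SAA1, against 30.4 FPKM with vehicle, while Cdkn1a, the related inhibitor p21, fell to 42.3 FPKM with SAA1, against 67.8 FPKM with vehicle. Myc and Nfatc1, transcription factors of T cell growth and activation, fell with log2 ratios of -0.48 each. Of 15 other reported STAT3 and STAT5 targets, the authors' deposited table called 2 higher, Lta and Fosl2 (log2 ratios 0.63 and 0.60), and 3 lower, Cdkn1a, Ccnd2 and Myc. Ccnd2, a cyclin whose locus overlaps another row, had a log2 ratio of -0.54. Their median was 0.08. Over all pathway lists, 15 of 108 tested genes were called in the authors' deposited table, which is 13.9%, against the 6.52% of all tested genes; the lists were chosen with earlier results of these data known.

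**Figure D4:**
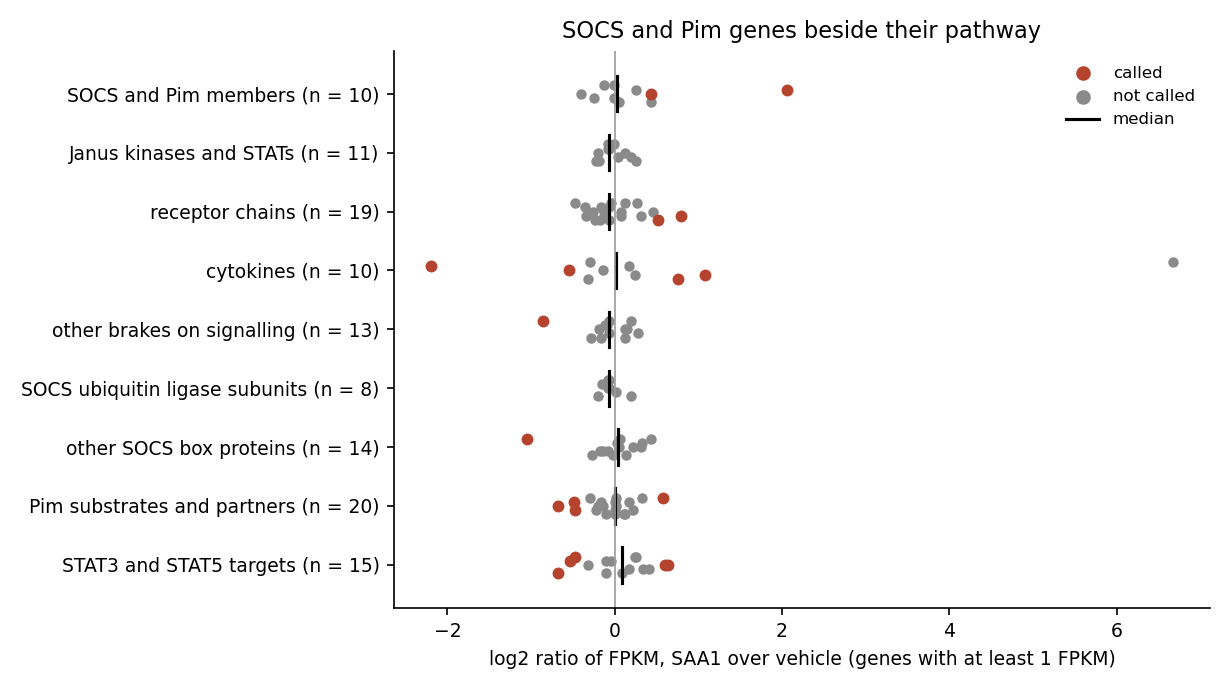
The log2 ratio of SAA1 over vehicle FPKM for genes that reached 1 FPKM in at least one group, by list, with called genes in red, others in grey and a bar at each median; genes may stand in 2 lists. The median of the SOCS and Pim members is 0.02, and the cytokine point far to the right is Il9, at 24.4 FPKM with SAA1 and 0.239 FPKM with vehicle, which was not called (adjusted p 0.49 in the authors' deposited table).

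Markers of the labelled cell type were present in both groups. All 6 Th17 markers were called higher with SAA1 by the authors' deposited table. Their summed level was 1776 FPKM with SAA1 and 356 FPKM with vehicle. Among them, Il21 and Il23r are also counted in the cytokine and receptor lists above. Of 8 T cell genes, Thy1 was called higher and Cd3e lower. Over all tested genes 3.97% were called higher, 2.55% were called lower and 15.8% had an unadjusted Cuffdiff p under 0.05. Of 13 myeloid and dendritic cell markers 11 were under 1 FPKM in both groups, 3 of them at 0, while H2-Ab1 was called higher and Cd74 lower. Of 6 B cell markers 5 were under 1 FPKM in both groups, and the remaining one, Ebf1, was at 0.811 FPKM with SAA1 and 1.49 FPKM with vehicle (Cuffdiff p 0.0047, adjusted p 0.063 in the authors' deposited table). Of 8 CD8 and natural killer cell markers only 4 were under 1 FPKM in both groups. Nkg7 was at 31.4 FPKM with SAA1 and 33.5 FPKM with vehicle, and Cd8b1 at 4.24 FPKM with SAA1 and 4.32 FPKM with vehicle. Of the 5 tested in this list, 0 were called by Cuffdiff, where 1 had an unadjusted p under 0.05. The part of these shifts in the SOCS and Pim values was not tested.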

How the data were processed

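Libraries were made from total RNA with an Illumina TruSeq kit, per the labels' protocols, and grouped by title. TopHat2 and Cuffdiff, with the builds mm9 and mm10, are named in the submitters' processing notes; versions, strand and scaling are not given there or in the file. The deposited table holds 1 FPKM value per group, a test statistic, and the authors' p-value and q-value. The test statistic is a score that the authors computed with Cuffdiff before the files were deposited, per the file headers. The headers name this score without its formula, so reading it as the log ratio over its SE is an assumption. Every SE and interval given here rests on that assumption. Of 21458 rows with a symbol in the GRCm38 table, 99% overlap its position, so coordinates are mm10, starts counted from 1.

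Log2 ratios were recomputed from the FPKM values and SEs taken as ratio over statistic; the deposited q was checked as the Benjamini-Hochberg adjustment over all tested genes (largest gap 5.2e-07). The functions were tested on simulated data whose statistic was built as the ratio over its SE, which checked the arithmetic only. Python 3.11.15, pandas 2.3.3 and scipy 1.17.1 were used. The tests foreseen for values per library (limma, edgeR, leaving out replicates) could not be run. Members, lists and tests were chosen with earlier results of these data known. The list of other STAT3 and STAT5 targets was not among the pathway lists written in the plan. Named are all members, Pim3 and, from each pathway list, up to 4 called genes by adjusted p and fold or, with fewer than 2 called, also the 2 most abundant; Il9 and the markers were named after their values were seen. Alternatives covered the threshold, the adjustment, a fold minimum, shared loci, the pseudocount, the FPKM minimum, centring and the mean.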

Additional observations from a re-analysis of the deposited data

How the results depend on the processing

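Of the 10 members, Socs2 was called under every alternative for the adjusted p, and the count of 2 called higher became 1, Socs2 alone, at an adjusted p under 0.01, with the normal p of the statistic and with a fold of at least 1.5. At an adjusted p under 0.1 the counts were 3 higher and 1 lower, adding Socs3 and Socs4. The share of all tested genes was not taken at 0.01, at 0.1 or with the fold minimum. Those counts therefore have no background beside them and are descriptions. The normal p called 247 genes in all, of which 235 are among the 749 called by the deposited q; the cause was not tested. Centring on the median of tested genes turned the log2 ratios of Socs1 and Socs5, neither called, to 0.0054 and 0.011. Pathway genes called numbered 8 at an adjusted p under 0.01, again without a background share at that threshold. A pseudocount of 1 gave Socs2 a log2 ratio of 1.51. The members' median lay between 0.02 and 0.05 under the other filters, pseudocounts and centring tried, and their mean was 0.24. No paired analysis was possible because the table gives 1 value per group, so no replicate could be left out either, and depth per library is unknown.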
